A study of Mus musculus with 14 samples.

Results

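The nuclear-encoded genes of oxidative phosphorylation were taken from the counts table by symbol, as the subunits named Nduf, Sdh, Uqcr, Cox4 to Cox8 and Atp5, without pseudogenes. This gave 83 of the 24454 genes in the table: 36 of complex I, 4 of complex II, 8 of complex III, 18 of complex IV and 17 of complex V. *Ndufa4* was counted with complex I because of its symbol, although its protein is also known as a complex IV subunit. Of the 83 genes, 79 had enough reads to be tested, and the others were *Cox6a2*, *Cox7b2*, *Cox8b* and *Cox8c*.

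In the inner mitochondrial membrane, complexes I and II pass electrons from NADH and succinate to ubiquinone, complex III hands them on to cytochrome c, and complex IV passes them to oxygen. Complexes I, III and IV pump protons as they do so, and complex V, the ATP synthase, uses the proton gradient to make ATP. A few core subunits are encoded by mitochondrial DNA, and all others, including those described here, by nuclear genes. Several complex IV subunits exist as isoforms used in different tissues, such as the muscle forms *Cox6a2*, *Cox7a1* and *Cox8b*.

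The 14 poly(A) RNA-seq libraries came from mouse forelimb bud cells sorted by FACS. All embryos carried the Sox9 IRES-EGFP allele on a mixed Swiss Albino background, and cells were pooled over many buds and both sexes, so that each library is a pool. The prefixes S9+ and S9- say whether cells were positive or negative for that reporter. There were 3 libraries of S9-JAG1+ limb bud mesenchymal progenitors (LMPs), 3 of S9-Pαhi LMPs with high surface PDGFRα, 3 of S9+Pαhi osteochondrogenic progenitors (OCPs) and 2 of S9-SCA-1+ cells, all labelled E10.5. The other 3 libraries were chondroblasts at E11.5, whose sort gate in the labels is the same as that of OCPs, so that stage and population cannot be told apart for them. Before sorting, dead cells and cells with endothelial, blood or epithelial surface markers were gated out in all populations. The labels and methods do not say more of how independent the pools were, so the p values measure only the spread between these pools.

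Library totals ranged from 20316583 to 29162751 counts. Of the genes behind the gates, *Sox9* was at 411 to 625 CPM (counts scaled to a common library size by the TMM method) in OCPs and chondroblasts and at 7.41 to 65.5 CPM in the S9- libraries. *Ly6a*, which encodes SCA-1, was at 3.36 and 3.10 CPM in the S9-SCA-1+ libraries and below 1 CPM in all others. *Pdgfra* was at 667 to 949.7 CPM in OCPs and chondroblasts, 360.3 to 530.1 in S9-Pαhi LMPs, 246 to 248 in S9-JAG1+ LMPs and 44.8 and 24.0 in S9-SCA-1+ cells. *Jag1* was at 228 to 364 CPM in S9-JAG1+ LMPs, but also at 102 to 137 CPM in chondroblasts, and at 21.3 CPM or less elsewhere. *Col2a1*, by which chondroblasts are named, was at 1274 to 1886 CPM in them and at 695 to 1228 CPM in OCPs. OCP replicate 2 had the lowest total of all libraries, and S9-SCA-1+ replicate 3 had 4020 CPM of 9 red blood cell genes, against 141 CPM in replicate 2 and 3.05 to 96.1 CPM in the other libraries.

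The promoters of these genes are known to be read by NRF1, by ETS family factors such as GABPA and by YY1. Windows of 300 bases around the transcription start (250 before, 50 after) were available from RefSeq on GRCm38.p6 for 68 of the 83 genes, 66 of them tested, 5 of which had more than 1 start and so more than 1 window. On either strand and in any of its windows, 20 of these 66 genes held the NRF1 letters GCGCANGCG (30.3%), against 14.1% of the 11743 tested genes with a window. The ETS letters CCGGAAG were held by 17 genes (25.8%, against 18.3%), the YY1 letters AAGATGGCG by 7 (10.6%, against 3.16%) and the letters TATAAA by 6 (9.09%, against 9.03%). NRF1, ETS and YY1 letters were thus found in a larger share of these genes than of all tested genes, and TATAAA in a like share, although 2325 tested genes had more than 1 window. To show what such a promoter looks like, the 250 bases before the start are given for 1 gene of each complex, chosen among the genes named below for holding NRF1, ETS or YY1 letters. All 5 lie on the minus strand and are printed 5′ to 3′ along the gene, with matches in capitals.
Ndufb6: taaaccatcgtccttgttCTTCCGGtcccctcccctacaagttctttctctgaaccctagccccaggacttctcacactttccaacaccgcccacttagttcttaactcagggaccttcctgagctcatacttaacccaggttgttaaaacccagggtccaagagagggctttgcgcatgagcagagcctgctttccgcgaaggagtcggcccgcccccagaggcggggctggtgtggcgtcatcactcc
Sdhd: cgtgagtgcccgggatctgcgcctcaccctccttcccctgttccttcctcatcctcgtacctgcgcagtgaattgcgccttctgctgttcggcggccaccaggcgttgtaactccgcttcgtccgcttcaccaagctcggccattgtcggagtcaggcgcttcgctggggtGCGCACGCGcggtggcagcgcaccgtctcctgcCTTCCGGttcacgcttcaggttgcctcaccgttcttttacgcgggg
Uqcr11: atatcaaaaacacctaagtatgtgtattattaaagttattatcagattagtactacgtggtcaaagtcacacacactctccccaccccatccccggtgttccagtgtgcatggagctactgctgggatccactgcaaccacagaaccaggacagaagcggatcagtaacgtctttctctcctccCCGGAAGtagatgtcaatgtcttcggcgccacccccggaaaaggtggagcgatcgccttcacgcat
Cox6a1: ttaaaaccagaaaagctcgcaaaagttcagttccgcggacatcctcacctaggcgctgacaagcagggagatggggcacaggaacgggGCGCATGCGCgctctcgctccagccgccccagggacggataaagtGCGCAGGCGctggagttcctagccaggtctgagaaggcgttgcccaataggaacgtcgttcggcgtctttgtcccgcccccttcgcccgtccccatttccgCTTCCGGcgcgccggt
Atp5g2: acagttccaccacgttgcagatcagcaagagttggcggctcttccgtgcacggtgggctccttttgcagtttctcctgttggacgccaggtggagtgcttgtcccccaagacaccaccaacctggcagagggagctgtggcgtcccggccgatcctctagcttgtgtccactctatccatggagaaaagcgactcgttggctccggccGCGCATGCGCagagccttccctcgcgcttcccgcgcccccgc
The *Ndufb6*, *Sdhd*, *Uqcr11*, *Cox6a1* and *Atp5g2* windows lie at chr4:40279422-40279671, chr9:50603850-50604099, chr10:80406822-80407071, chr5:115348959-115349208 and chr15:102671048-102671297. In *Sdhd* the capitals mark 1 NRF1 match and 1 ETS match on the other strand. *Cox6a1* has 3 NRF1 matches, a pair of which overlap on opposite strands, and 1 ETS match. *Atp5g2* has a pair of NRF1 matches that overlap on opposite strands, and *Ndufb6* and *Uqcr11* have 1 ETS match each in capitals. *Uqcr11* also has 1 NRF1 match on the other strand that begins at -5. It crosses the start and is therefore not in capitals. The starts are those of RefSeq. For *Sdhd* and *Atp5g2* the bases just after the start were not found unbroken in a transcript of the same gene in GENCODE, another annotation. These are matches of letters only, and binding was not measured.

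Most members were abundant, and the complexes differed in level. Levels were taken per kilobase of gene length, which allows genes to be compared, and averaged over the 14 libraries for each gene. The median over the tested genes was 61.2 CPM for complex I (range over genes 11.2 to 203) and 83.5 for complex II (72.9 to 105). It was 97.2 for complex III (75.5 to 152), 112 for complex IV (0.681 to 315) and 143 for complex V (1.35 to 696). The highest level belonged to *Atp5b*, the catalytic beta subunit of the ATP synthase, with 696 CPM per kilobase, followed by its alpha subunit *Atp5a1* with 431 and the membrane ring subunit *Atp5g3* with 367. The lowest levels belonged to alternative isoforms: *Cox7a1* with 0.681, *Atp5g2* with 1.35, *Cox4i2* with 3.74 and *Cox6b2* with 7.69 CPM per kilobase. All 4 untested members are tissue-specific isoforms of complex IV. *Cox6a2* had 0 reads in all libraries, and *Cox8c*, *Cox8b* and *Cox7b2* had 2, 12 and 15 reads over all 14 libraries. A count of 0 allows up to 3 reads, or 0.101 to 0.149 CPM depending on the library, and such limits cover counting error only.

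Together the 83 genes took 1.19% ± 0.024 of the counts in S9-SCA-1+ cells (SD, n = 2) and 0.649% ± 0.0239 in chondroblasts (SD, n = 3). The share was 0.826% ± 0.074 in S9-JAG1+ LMPs, 0.853% ± 0.0697 in S9-Pαhi LMPs and 0.77% ± 0.184 in OCPs (SD, n = 3 each). In bulk libraries such as these, fewer cells with a transcript and less of it per cell cannot be told apart. The mean CPM was highest in S9-SCA-1+ cells for 74 of the 79 tested members and lowest in chondroblasts for 72. In a joint test of any difference among the 5 populations, 69 of 79 members passed the limit of 0.1 on the Benjamini-Hochberg adjusted p (edgeR), a share to be read against 74.8% of all 15125 tested genes. The 10 that did not pass were *Ndufa3*, *Ndufa6*, *Ndufa7*, *Ndufa11*, *Ndufa13*, *Ndufb3*, *Ndufv3*, *Uqcrb*, *Cox7a1* and *Atp5g2*.

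In single libraries the members moved together. Measured as log2 CPM minus the gene's mean over the 14 libraries, the median over the 79 members was 0.49 and 0.54 in the S9-SCA-1+ libraries and -0.32, -0.38 and -0.38 in the chondroblast libraries. It was 0.23, -0.04 and -0.08 in S9-JAG1+ LMPs, and 0.06, -0.02 and 0.28 in S9-Pαhi LMPs. The OCP libraries spread most, at 0.31, -0.56 and -0.04. OCP replicate 2 was thus the lowest of all 14 libraries, and only 1 of 79 members was above its own mean there, while 77 of 79 were above it in OCP replicate 1.

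Gene length bears directly on these values. The tested members had a median length of 692 bases (292 to 2927), against 2910 for all tested genes, and the libraries differed in how the log2 level changed with length. Over the 8126 genes that reached 20 CPM on average, the slope per doubling of length was 0.13 to 0.16 in the chondroblast libraries and 0.16 in OCP replicate 2, so that short genes were lower there. In the S9-SCA-1+ libraries the slope was -0.11 and -0.17, and in the other 8 libraries it lay between -0.12 and 0.04. A smooth length trend (loess) was therefore fitted to these 8126 genes, 70 of the 79 tested members among them, in each library and subtracted. After this the medians of the members were 0.26 and 0.24 in the S9-SCA-1+ libraries and -0.05, -0.06 and -0.05 in the chondroblast libraries. OCP replicate 2 was at -0.19, and the other 8 libraries between -0.12 and 0.06. The S9-SCA-1+ libraries stayed above all others, whereas the chondroblast libraries lay within the range of the rest.

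**Figure D1:**
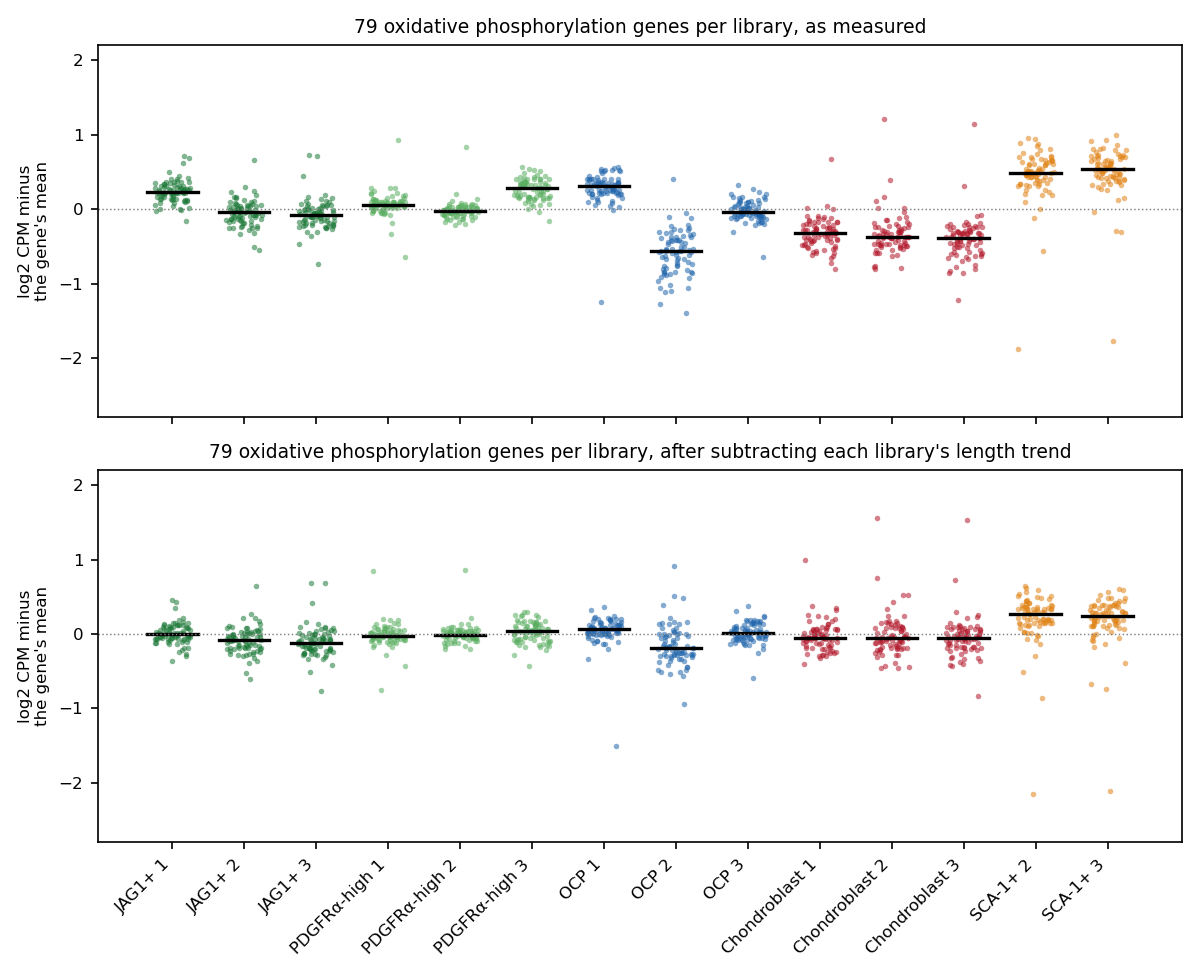
Each point is 1 of 79 oxidative phosphorylation genes in 1 library, as log2 CPM minus the gene's mean over all 14 libraries, with the median as a bar. In the upper panel, as measured, the S9-SCA-1+ medians are 0.49 and 0.54 and the chondroblast medians -0.32 to -0.38; in the lower panel, after the length trend of each library, they are 0.26 and 0.24 and about -0.05.

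Each population was then compared with the mean of the other 4 to ask in which cells these genes were higher or lower. All 14 libraries entered a single model of 5 population means, and a gene is said to have passed, risen or fallen at an adjusted p of at most 0.1. A second fit carried the length trend of each library as an offset, so that it tested differences beyond that trend. The study itself also required a log2 fold change of at least 1.2, a size that only *Cox4i2* reached among the members.

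S9-SCA-1+ cells had higher levels of nearly the whole group. Of 79 members, 67 rose and 2 fell against the mean of the other 4 populations, while 23.5% of all tested genes rose and 22.8% fell. The median log2 fold change of the members was 0.60, of which the length trend at their lengths made up 0.36, and the median beyond the trend was 0.27. For all tested genes the median was -0.01. In 57 members both S9-SCA-1+ libraries lay above all 12 others, which was so for 10.8% of all tested genes, and in 1 member, *Cox4i2*, both lay below, as in 10.1%. With the length trend as an offset, 52 members rose and 2 fell, against 20.6% and 26.0% of all tested genes.

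Members of every complex rose. By complex, 29 of 36 members of complex I, 4 of 4 of complex II, 7 of 8 of complex III, 11 of 14 of complex IV and 16 of 17 of complex V rose. The median log2 fold changes were 0.50, 0.63, 0.70, 0.60 and 0.65 in this order, and 0.23, 0.45, 0.42, 0.23 and 0.40 beyond the length trend. Complex I thus had the smallest median on the first scale and shared the smallest on the second with complex IV. The difference between complexes was not tested.

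Subunits of the catalytic core followed the same direction. *Atp5b* (Entrez 11947; chromosome 10, 128083307 to 128090388, 1879 bases) was at 1977 and 2081 CPM in S9-SCA-1+ cells, at 1520, 1409 and 1388 in S9-JAG1+ LMPs, at 1344, 1238 and 1427 in S9-Pαhi LMPs, at 1395, 842 and 1146 in OCPs and at 902, 815 and 834 in chondroblasts. Both S9-SCA-1+ libraries were above all others, and the chondroblast libraries overlapped only OCP replicate 2. In S9-SCA-1+ cells the log2 fold change was 0.80 (SE 0.12, adjusted p = 0.000105, edgeR with Benjamini-Hochberg), and 0.67 beyond the trend. Its partner *Atp5a1* was at 1491 and 1484 CPM there and between 692 and 1188 CPM in the other libraries, with a log2 fold change of 0.62.

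Complex II, succinate dehydrogenase, also belongs to the TCA cycle. *Sdha*, its flavoprotein (Entrez 66945; chromosome 13, 74322255 to 74350240), was at 321 and 302 CPM in S9-SCA-1+ cells, at 219.9, 204 and 199 in S9-JAG1+ LMPs, at 236, 233 and 252 in S9-Pαhi LMPs, at 267, 166 and 220.2 in OCPs and at 201, 191 and 183 in chondroblasts. In S9-SCA-1+ cells the log2 fold change was 0.55 (SE 0.11, adjusted p = 0.00157, edgeR with Benjamini-Hochberg). At its length of 2859 bases the trend was small, and the value beyond it was 0.48. The iron-sulfur subunit *Sdhb* was at 161 and 169 CPM against 84.8 to 124 CPM elsewhere, with a log2 fold change of 0.68. For the membrane anchors *Sdhc* and *Sdhd* the log2 fold changes were 0.58 and 0.69, and all 4 genes had both S9-SCA-1+ libraries above all others.

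In complex I, *Ndufs1*, the largest subunit with iron-sulfur centres and the longest member at 2927 bases, was at 190.5 and 204 CPM in S9-SCA-1+ cells. The other libraries lay between 123 and 157 CPM, and the log2 fold change was 0.45 (SE 0.06, adjusted p = 3.7e-05, edgeR with Benjamini-Hochberg). *Ndufv1*, which binds NADH, was at 176 and 180.5 CPM against 85.8 to 146, with a log2 fold change of 0.61. The accessory subunit *Ndufb6*, at 68.1 and 69.0 CPM against 26.9 to 52.3, had 0.83, and *Ndufa4*, at 150.1 and 154 CPM against 49.8 to 134, had 0.78. In complex III the core subunit *Uqcrc1* and the Rieske protein *Uqcrfs1* had log2 fold changes of 0.53 and 0.66, and the small subunits *Uqcr11* and *Uqcrq* had 1.06 and 1.03.

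The largest rise among the members belonged to a small complex IV subunit. *Cox8a* (Entrez 12868; chromosome 19, 7215158 to 7217616, 545 bases) was at 275 and 286 CPM in S9-SCA-1+ cells, at 173, 127 and 141 in S9-JAG1+ LMPs, at 158, 145 and 190 in S9-Pαhi LMPs, at 165, 78.9 and 127 in OCPs and at 94.9, 94.8 and 94.2 in chondroblasts. Both S9-SCA-1+ libraries stood clear of the rest. The log2 fold change was 1.11 (SE 0.17, adjusted p = 0.000121, edgeR with Benjamini-Hochberg), and 0.71 beyond the length trend. Among the other complex IV subunits, the log2 fold changes were 0.83 for *Cox4i1*, 0.77 for *Cox5a*, 0.92 for *Cox6a1*, 0.74 for *Cox6b1* and 0.56 for *Cox7a2*. In complex V, the ring subunit genes *Atp5g1* and *Atp5g3*, which encode the same mature protein, had 1.00 and 0.91.

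**Figure D2:**
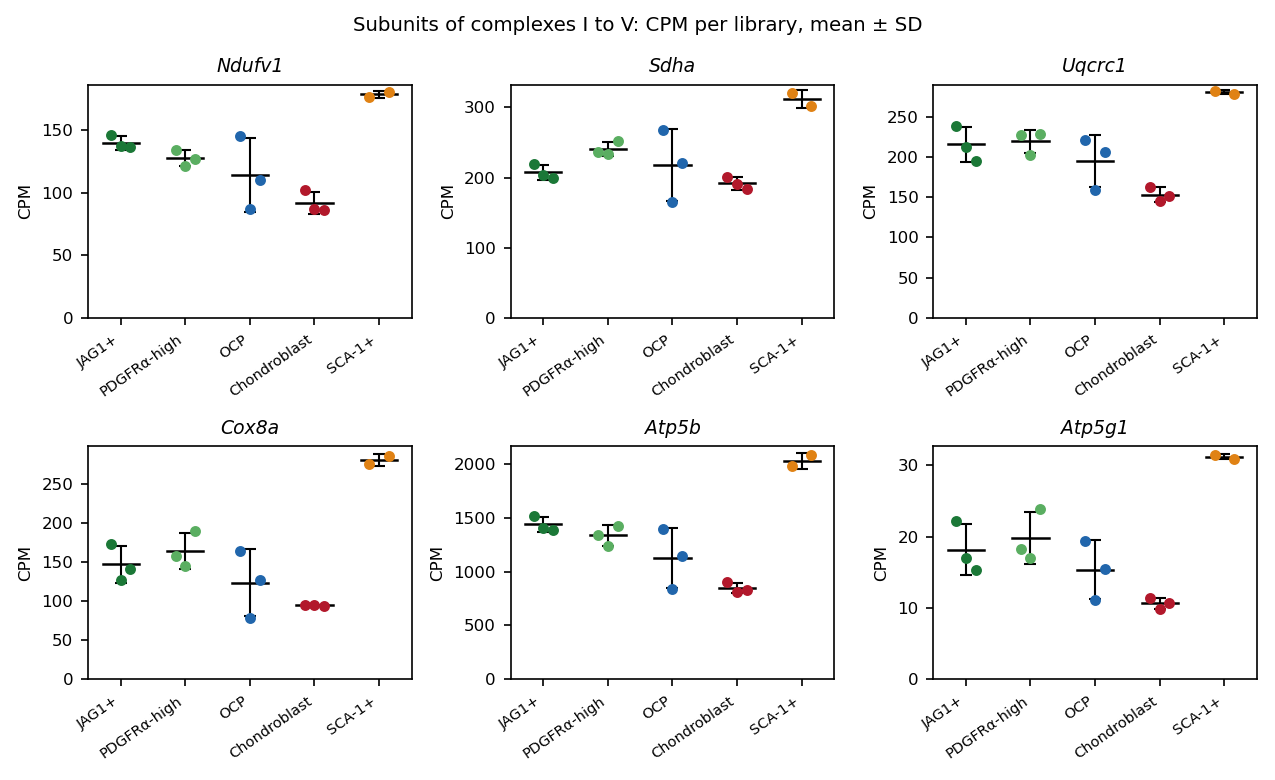
CPM per library (points, axis from 0) with mean and SD for a subunit of each of complexes I to IV and for 2 subunits of complex V. In all 6 panels both S9-SCA-1+ libraries lie above the others and chondroblasts have the lowest mean; for *Atp5b* the S9-SCA-1+ libraries are at 1977 and 2081 CPM and the chondroblasts at 815 to 902 CPM.

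S9-SCA-1+ libraries differed from the others in cell type markers as well. The 6 muscle precursor genes *Pax3*, *Pax7*, *Myf5*, *Myod1*, *Lbx1* and *Met* together were at 1500 CPM in both of them and at 1.93 to 10.7 CPM in the other libraries. Their part, and that of the red blood cell genes in replicate 3, in the levels of the members was not tested. The members' share of the counts was 1.172% in replicate 2 and 1.206% in replicate 3. Beyond the length trend the members' median deviation was 0.26 in replicate 2 and 0.24 in replicate 3. A fit without either replicate leaves a lone library, which is assumed to vary like the other groups. The share of all tested genes passing in such a fit is not given, so its count of members is not read here.

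Chondroblasts showed the opposite direction. Of 79 members, 68 fell and 1 rose against the mean of the other 4 populations, while 29.4% of all tested genes fell and 35.7% rose. The median log2 fold change of the members was -0.54, against 0.05 for all tested genes. However, the length trend came to -0.48 at the members' lengths, and the median beyond it was -0.09. As members were among the genes that define the trend, part of their own shift may be in it. With the trend as an offset, 30 members fell and 7 rose, against 21.3% and 45.4% of all tested genes. All 3 chondroblast libraries lay below the 11 others in 5 members only (*Ndufb8*, *Ndufs1*, *Cox7b*, *Atp5c1* and *Atp5md*), against 11.6% of all tested genes.

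By complex, 30 of 36 members of complex I, 4 of 4 of complex II, 8 of 8 of complex III, 10 of 14 of complex IV and 16 of 17 of complex V fell. The median log2 fold changes beyond the trend were -0.04, -0.15, -0.16, -0.10 and -0.10 in this order. With the trend as an offset, 9, 3, 5, 6 and 7 members fell, and 4 of complex I and 3 of complex IV rose. The largest falls were those of *Uqcr11* (log2 fold change -1.04), *Atp5g3* (-0.99), *Uqcrq* (-0.97), *Cox5a* (-0.94), *Atp5g1* (-0.93), *Ndufa4* (-0.88), *Cox6a1* (-0.87) and *Cox8a* (-0.85). All 8 also fell with the offset, by log2 fold changes between -0.52 and -0.32.

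*Uqcr11*, a small subunit of complex III (Entrez 66594; chromosome 10, 80402997 to 80406821), was at 21.8, 19.3 and 18.7 CPM in chondroblasts, at 38.9, 33.7 and 29.4 in S9-JAG1+ LMPs, at 34.7, 35.1 and 45.4 in S9-Pαhi LMPs, at 48.0, 18.8 and 34.5 in OCPs and at 64.8 and 62.9 in S9-SCA-1+ cells. OCP replicate 2 was as low as the chondroblasts. The SE of the log2 fold change was 0.20 (adjusted p = 0.000567, edgeR with Benjamini-Hochberg), and 10.9% of the 50-base windows of this gene also occur in another gene. *Atp5b* fell by 0.77 on the log2 scale (SE 0.11, adjusted p = 5.8e-05, edgeR with Benjamini-Hochberg). With the offset it had the lowest log2 fold change of all members, -0.54.

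Of the other core subunits, *Cox5a* fell more than *Atp5b*, as given above, and the following fell less. The log2 fold changes were -0.29 for *Ndufs1*, -0.59 for *Ndufv1*, -0.33 for *Sdha*, -0.48 for *Sdhb*, -0.35 for *Sdhc*, -0.59 for *Sdhd*, -0.56 for *Uqcrc1*, -0.52 for *Uqcrfs1*, -0.61 for *Cox4i1* and -0.49 for *Atp5a1*. The remaining named subunits *Ndufb6*, *Cox6b1* and *Cox7a2* had -0.72, -0.64 and -0.66. With the offset, *Sdhc* and *Cox6b1* no longer passed, at log2 fold changes of 0.0010 and -0.09. The 10 members that did not pass in either direction without the offset included *Ndufa3*, *Ndufa6*, *Ndufb3*, *Ndufb10*, *Ndufs4* and *Ndufv3*.

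The length trend depends on the genes that define it. Among other genes with at least 20 CPM and up to 600 bases, the median log2 fold change in chondroblasts was -0.62, and the 31 members of this length were at -0.60. At 600 to 1000 bases, 23 members were at -0.56 and other genes at -0.42, and at 1000 to 1600 bases 13 members were at -0.38 and other genes at -0.32. The 12 members over 1600 bases were at -0.40 and other genes at -0.06, and all 12 fell, 10 of them also with the offset. Members up to 600 bases were thus close to other genes of that length, ribosomal protein genes included, while those of 600 to 1000 bases were lower. The 12 long members end at 2927 bases, while the 6955 other long genes reach 83437 bases. Their medians are therefore not matched on length. Beyond the trend the 12 long members had a median of -0.21. Among genes up to 600 bases, 78 others were available, and without ribosomal protein genes the median of the remaining 47 was -0.52. At 600 to 1000 bases the median of other genes without ribosomal protein genes was -0.365. With a trend over all tested genes, most of them with lower counts, the members' median beyond the trend was -0.34 in place of -0.09.

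In S9-SCA-1+ cells the members were higher than other genes in each of these length ranges, of which the last is again not matched on length. The medians were 0.69 against 0.49 up to 600 bases, 0.61 against 0.30 at 600 to 1000 bases, 0.50 against 0.20 at 1000 to 1600 bases and 0.55 against -0.01 over 1600 bases. Of the 12 longest members 11 rose, 10 of them also with the offset, and their median beyond the trend was 0.42. The trend over all tested genes gave a median of 0.40 beyond the trend.

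**Figure D3:**
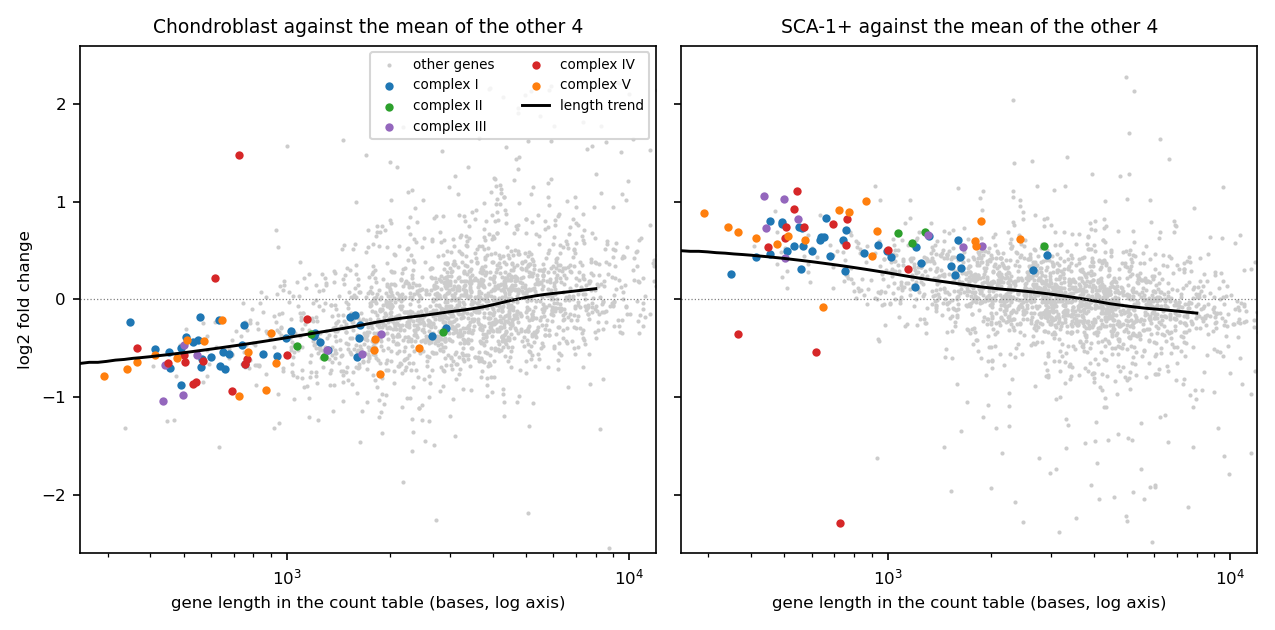
Log2 fold change against gene length in the count table (log axis) for chondroblasts and S9-SCA-1+ cells, each against the mean of the other 4 populations; coloured points are the 79 members by complex, grey points a sample of the other genes with at least 20 CPM, and the line the length trend; points beyond the axes are not drawn. The median distance of the members from the line is -0.09 in chondroblasts, with -0.21 for the 12 members over 1600 bases, and 0.27 in S9-SCA-1+ cells.

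The other mitochondrial lists were set beside the members. Of all tested genes, 23.5% rose in S9-SCA-1+ cells and 29.4% fell in chondroblasts. Of 16 genes of the TCA cycle and pyruvate dehydrogenase, which feeds NADH and succinate into the chain and whose median length was 2340.5 bases, 16 rose in S9-SCA-1+ cells and 15 fell in chondroblasts. Their medians beyond the length trend were 0.54 and -0.36, both farther from 0 than those of the members. Of 45 assembly factors, which build the complexes without being part of them, 23 rose and 2 fell in S9-SCA-1+ cells, and 28 fell and 1 rose in chondroblasts, with medians beyond the trend of 0.07 and 0.00355. Of 78 mitochondrial ribosomal proteins 59 rose in S9-SCA-1+ cells and 73 fell in chondroblasts, with medians beyond the trend of 0.21 and -0.17.

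Of 81 tested cytosolic ribosomal proteins, which are short like the members, 66 rose in S9-SCA-1+ cells and 79 fell in chondroblasts, with medians beyond the trend of 0.18 and -0.17. Among 18 glycolysis genes 11 rose and 2 fell in S9-SCA-1+ cells, and 12 fell and 3 rose in chondroblasts, with medians beyond the trend of 0.25 and -0.55. Among 18 regulators of mitochondrial biogenesis 9 rose and 1 fell in S9-SCA-1+ cells, and 12 fell and 2 rose in chondroblasts. Their medians beyond the trend were 0.25 and -0.14, and their log2 fold changes in S9-SCA-1+ cells ranged from -0.23 to 4.015. Of 8 subunits and carriers whose names lie outside the rule, such as cytochrome c *Cycs*, 6 rose and 1 fell in S9-SCA-1+ cells, and 7 fell in chondroblasts. Both comparisons share libraries, each population being part of the other's reference.

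**Figure D4:**
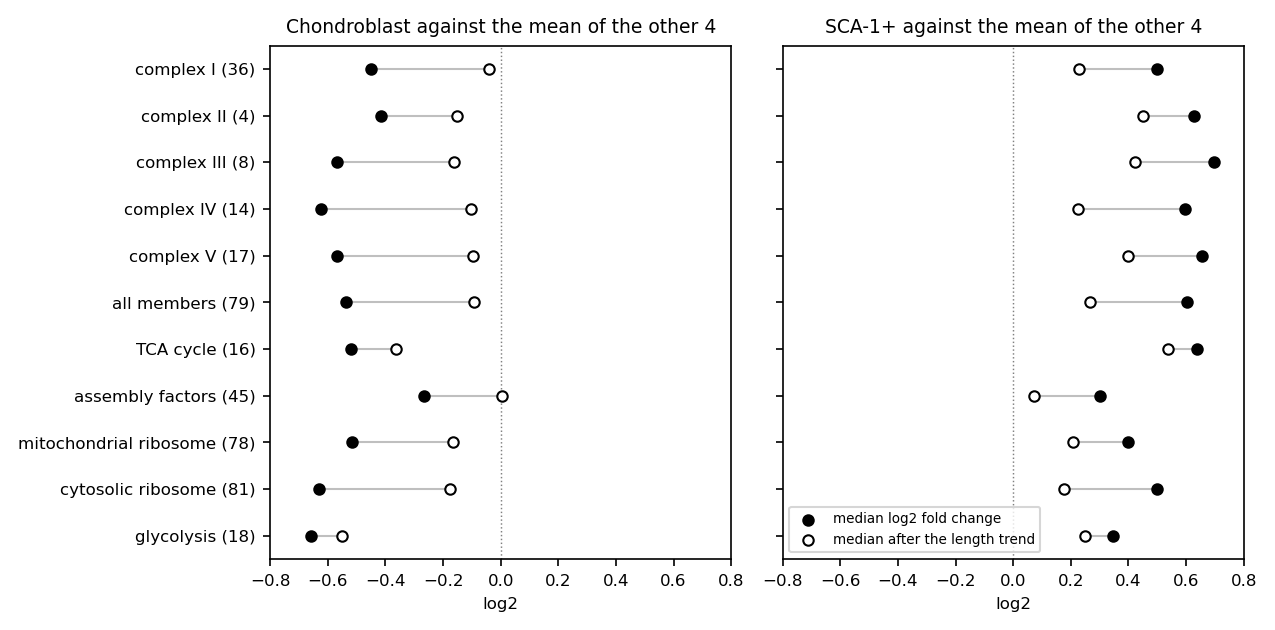
Median log2 fold change (filled) and median after subtracting the length trend (open) for the members by complex and for other lists, with the number of tested genes in brackets, in chondroblasts and S9-SCA-1+ cells against the mean of the other 4 populations. In chondroblasts the open symbols of the members lie near 0 (-0.09 for all 79) while the TCA cycle stays at -0.36; in S9-SCA-1+ cells they stay above 0 (0.27 for all 79).

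Chondroblasts were also compared with OCPs directly, as the labels give them the same gate. Here 24 members fell and 1 rose, against 16.5% and 18.3% of all tested genes, and the median log2 fold change was -0.34, of which -0.07 was beyond the trend. With the offset 6 fell and 5 rose, against 12.0% and 23.2%. The count depended on single libraries. The share of all tested genes passing in the fits without a library is not given. Whether the shifts are particular to the members thus cannot be told. Without OCP replicate 2 it was 73 members, and without OCP replicate 1 it was 2. Leaving out replicate 1, 2 or 3 of the chondroblasts gave 15, 5 and 11 members, without OCP replicate 3 it was 10, and without S9-Pαhi replicate 1 it was 16.

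Few members passed in the comparisons of OCPs and both LMP populations without the offset, though the counts for OCPs depended on single libraries. Set against the mean of all other populations, 1 member rose and 3 fell in OCPs, against 16.6% and 11.9% of all tested genes, with a median log2 fold change of -0.12. Without OCP replicate 1 the number was 45, again without a share of all tested genes to read it against. Between OCPs and S9-Pαhi LMPs 1 member passed, *Cox4i2*, which fell, while 11.8% of all tested genes rose and 8.35% fell, with a median of -0.15 and of -0.01 beyond the trend. The number was 38 without OCP replicate 1, with the same limit. With the offset 3 members rose and 8 fell in OCPs, against 19.9% and 12.4% of all tested genes, and 3 were higher and 5 lower than in S9-Pαhi LMPs, against 14.6% and 8.32%. The members that fell in OCPs beside *Cox4i2* were the complex I subunits *Ndufs5* and *Ndufs8*, with log2 fold changes of -0.40 and -0.26 in the first comparison. In OCP replicates 1, 2 and 3 *Ndufs5* was at 9.78, 5.135 and 9.44 CPM and *Ndufs8* at 46.6, 31.05 and 41.6 CPM. For both genes OCP replicate 2 was the lowest of all 14 libraries.

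In S9-Pαhi LMPs 1 member passed against all other populations, *Cox4i2*, which rose, while 8.03% of all tested genes rose and 7.60% fell. Against S9-JAG1+ LMPs 2 members passed, *Cox6b2* and *Cox7a2l*, both of which were higher in S9-Pαhi LMPs, while 15.2% of all tested genes were higher and 12.8% lower. The medians were 0.07 and 0.05. With the offset 1 rose and 4 fell in the first comparison, against 8.09% and 9.43%, and 8 rose and 1 fell in the second, against 18.5% and 12.4%. Set against all other populations, 3 members rose and 1 fell in S9-JAG1+ LMPs, against 24.2% and 25.7%, with a median of -0.03. As the length trend was 0.10 at the members' lengths, the median beyond it was -0.12. With the offset 33 members passed in S9-JAG1+ LMPs, 31 of them lower, while 52.4% of all tested genes passed and 32.4% were lower. Without the S9-SCA-1+ population in the fit the median beyond the trend was -0.04.

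A few isoforms left the common pattern. *Cox4i2*, the alternative form of the complex IV subunit COX4 that is known for its response to low oxygen (Entrez 84682; chromosome 2, 152753916 to 152765039), was at 3.46, 5.06 and 4.83 CPM in chondroblasts, at 4.15, 3.87 and 3.09 in S9-Pαhi LMPs and at 3.55, 2.39 and 3.57 in S9-JAG1+ LMPs. It was at 0.852, 0.761 and 1.34 CPM in OCPs and at 0.525 and 0.570 in S9-SCA-1+ cells. The libraries of OCPs and S9-SCA-1+ cells were all below those of the other populations, and the levels of chondroblasts and both LMP populations overlapped. Against the mean of the other 4 populations its log2 fold change was 1.48 in chondroblasts (SE 0.18, adjusted p = 1.2e-05, edgeR with Benjamini-Hochberg) and -2.29 in S9-SCA-1+ cells (SE 0.30, adjusted p = 3.4e-05, same test).

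The same gene fell in OCPs, with a log2 fold change of -1.21, and rose in S9-JAG1+ LMPs and S9-Pαhi LMPs, with 0.87 and 1.15. It was higher in chondroblasts than in OCPs by a log2 fold change of 2.15 (SE 0.26, adjusted p = 5.8e-05, edgeR with Benjamini-Hochberg), with all libraries apart. Between OCPs and S9-Pαhi LMPs the log2 fold change was -1.89, again with all libraries apart. Libraries were apart in these directions for 21.6% and 11.8% of all tested genes. At the study's limits, with a log2 fold change of at least 1.2, *Cox4i2* was higher in chondroblasts (as were 11.0% of all tested genes), lower in OCPs (1.64%) and lower in S9-SCA-1+ cells (6.80%). At the same limits it was higher in chondroblasts than in OCPs (6.60%) and lower in OCPs than in S9-Pαhi LMPs (1.36%). *Cox4i1*, the form found in most tissues, was at 166 to 180.4 CPM in chondroblasts and at 377 and 387 CPM in S9-SCA-1+ cells, and so went the other way. Per base of length, *Cox4i2* made up 2.67% ± 0.605 of both forms in chondroblasts, 1.63% ± 0.331 in S9-Pαhi LMPs, 1.4% ± 0.278 in S9-JAG1+ LMPs and 0.481% ± 0.162 in OCPs (SD, n = 3 each), and 0.15% ± 0.00602 in S9-SCA-1+ cells (SD, n = 2). *Cox4i1* thus remained by far the main form in all populations.

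*Cox6b2*, known as the testis form of a complex IV subunit, was at 5.57, 5.26 and 6.83 CPM in S9-Pαhi LMPs and at 5.01, 3.19 and 2.70 in S9-JAG1+ LMPs, all libraries of the former being above, as in 19.8% of all tested genes. The log2 fold change between them was 0.70 (SE 0.25, adjusted p = 0.0664, edgeR with Benjamini-Hochberg). It was at 3.08 and 3.67 CPM in S9-SCA-1+ cells and fell there, with a log2 fold change of -0.54 at an adjusted p of 0.0997 (edgeR with Benjamini-Hochberg), just inside the limit. In OCPs it was at 6.65, 3.47 and 5.53 CPM and in chondroblasts at 4.61, 5.13 and 5.69. Its share of *Cox6b1* and *Cox6b2* together was between 1.68% in S9-SCA-1+ cells and 5.29% in chondroblasts. With the offset it rose in chondroblasts, with a log2 fold change of 0.73.

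*Cox7a2l*, known for its part in joining complexes III and IV into supercomplexes (Entrez 20463; chromosome 17, 83501917 to 83514333), was lowest in S9-JAG1+ LMPs, at 61.7, 46.9 and 49.9 CPM. It was at 70.8, 68.6 and 81.5 CPM in S9-Pαhi LMPs, at 99.4, 63.4 and 85.8 in OCPs, at 61.1, 62.0 and 65.3 in chondroblasts and at 78.5 and 88.4 in S9-SCA-1+ cells. All libraries of S9-Pαhi LMPs were above those of S9-JAG1+ LMPs. Its log2 fold change in S9-JAG1+ LMPs was -0.51 (SE 0.12, adjusted p = 0.00339, edgeR with Benjamini-Hochberg) and 0.30 in OCPs. For chondroblasts it was -0.20 and did not pass, in contrast to most members, and with the offset it rose there by 0.16. Of its 50-base windows 17.8% also occur in another gene.

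*Atp5g3* was at 396, 301 and 335 CPM in S9-JAG1+ LMPs, at 262, 217 and 281 in S9-Pαhi LMPs, at 294, 125 and 199 in OCPs, at 164, 144 and 140.4 in chondroblasts and at 425 and 433 in S9-SCA-1+ cells. By mean level S9-JAG1+ LMPs thus came after S9-SCA-1+ cells, and their log2 fold change was 0.52 (SE 0.17, adjusted p = 0.0232, edgeR with Benjamini-Hochberg). Its sister gene *Atp5g1* was at 22.2, 17.0 and 15.3 CPM there and made up 4.21% ± 0.462 of both per base of length, against 5.63% to 6.09% in the other populations. *Cox7a1*, the muscle and heart form, rose in S9-JAG1+ LMPs with a log2 fold change of 0.80 but stood at only 0.257, 0.419 and 0.436 CPM there, with 88 reads over all 14 libraries. It did not pass with the offset (log2 fold change 0.73, adjusted p = 0.113, edgeR with Benjamini-Hochberg) or in the joint test. *Atp5g2*, with 312 reads in all and 38.3% of its windows shared with another gene, passed in no comparison.

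**Figure D5:**
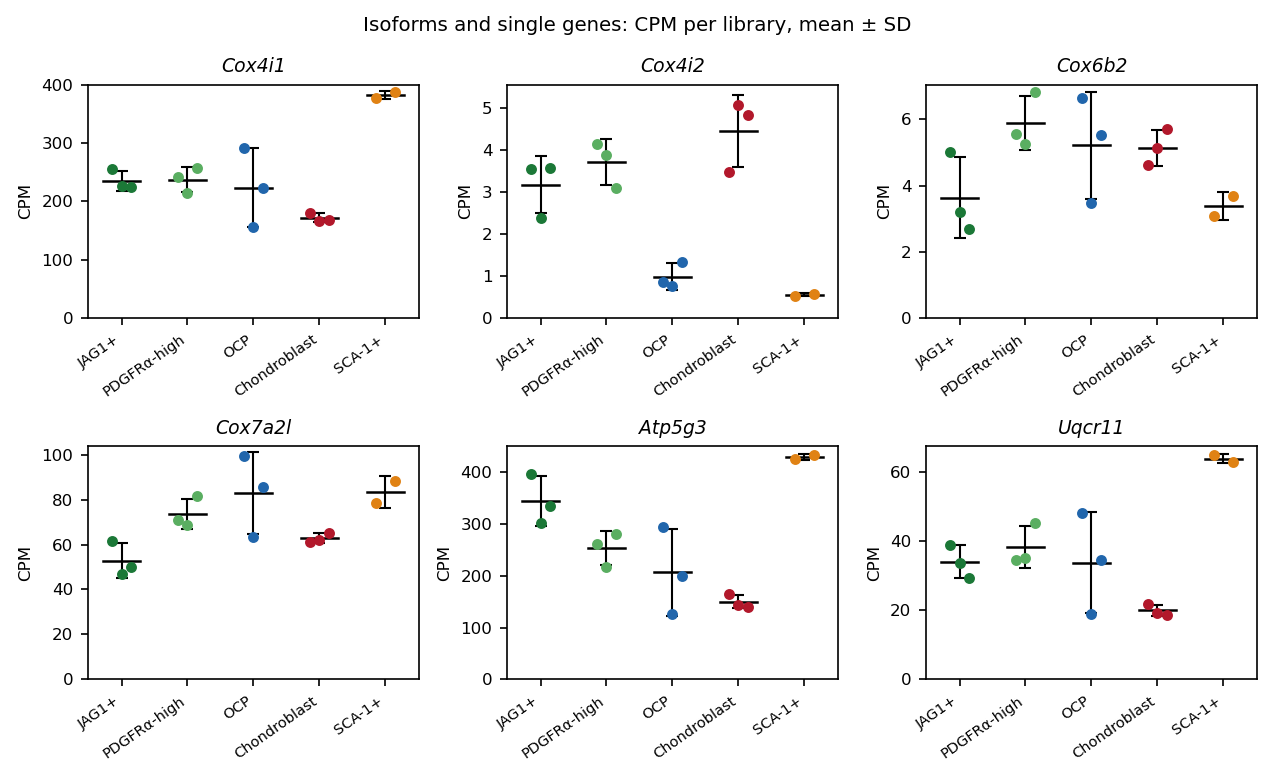
CPM per library (points, axis from 0) with mean and SD for *Cox4i1* and its isoform *Cox4i2*, and for *Cox6b2*, *Cox7a2l*, *Atp5g3* and *Uqcr11*. *Cox4i2* lies at 0.525 to 1.34 CPM in OCPs and S9-SCA-1+ cells and at 2.39 to 5.06 CPM elsewhere, while *Cox4i1* is highest in S9-SCA-1+ cells at 377 and 387 CPM.

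In 24 members at least 10% of the 50-base windows of the transcripts also occur in another gene, often a pseudogene. As 1 position was kept for each read that fitted several, their counts could be split between the copies, most of all for *Atp5l* (84.8% of windows), *Atp5o* (47.6%), *Uqcrb* (43.4%) and *Ndufs3* (39.7%). Without these 24 members, 46 rose and 2 fell in S9-SCA-1+ cells and 46 fell and 1 rose in chondroblasts, with medians beyond the length trend of 0.26 and -0.09.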

How the data were processed

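RNA was measured in 14 libraries of 5 sorted populations. Per the labels and methods, the authors mapped single-end reads to mm10 with STAR, kept 1 position for reads with several, and deposited raw counts of reads starting in RefSeq mRNA exons (QuasR); use of strand was not given in the sources used here. Identifiers were matched to symbols for 24374 of 24454 genes. Genes were filtered by edgeR's default rule (15125 kept), scaled by TMM and tested with the quasi-likelihood test (edgeR 4.0.16, R 4.3.3) in 1 model of all libraries, with Benjamini-Hochberg adjustment over all tested genes and a limit of 0.1. The biological coefficient of variation was 13.4%. The length trend was a loess fit (span 0.5) over 8126 genes with at least 20 CPM, members included. Members and lists were chosen with earlier results of these data known. The 31 named members were the 2 of each complex with the largest change among those that passed the joint test, fixed core subunits, isoform sets and the untested members. Others were named after their values were seen. Alternatives included DESeq2 1.42.0. Code was tested on simulated data. No replicate pair looked like 1 library deposited more than once.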

Additional observations from a re-analysis of the deposited data

How the results depend on the processing

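Normalization, filters, the length trend and single libraries were varied. Numbers of members passing are given for S9-JAG1+ LMPs (J), S9-Pαhi LMPs (P), OCPs (O), chondroblasts (C) and S9-SCA-1+ cells (S) against the mean of the other populations, and for P/J, O/P and C/O pairs. With library totals J had 9 and C/O 11, and the all-gene median for C moved from 0.046 to 0.148. DESeq2 size factors, a CPM filter and DESeq2 each gave 2 for O/P, and DESeq2 gave 7 for O. Of pairs of same-numbered libraries, 9 of 26 deviated together with r over 0.1 (median 0.05). Among pairs with different numbers this was so for 10 of 52 (median -0.04). Whether the numbers mark a shared batch was not tested. The replicate block gave 7 for J, 14 for O and 3 for O/P. The length offset gave 33 for J, 5 for P, 11 for O, 37 for C, 9 for P/J, 8 for O/P and 11 for C/O, and turned the log2 fold change of *Sdhc* in C to 0.0010. The block with the offset gave 36, 6, 12, 39, 10, 9 and 11 in this order. At an adjusted p of 0.05 there were 1 for O, 1 for P/J and 8 for C/O. The study's thresholds left 0 for J, P and P/J and 1 for O, C, S and C/O. A trend over all tested genes put the median beyond the trend at -0.033 for J, -0.340 for C, 0.399 for S, -0.095 for O/P and -0.190 for C/O, and a trend without members and ribosomal genes at 0.342 for S. Leaving out the S9-SCA-1+ population gave 39 in the joint test, 16 for J, 6 for P and 2 for O, with medians beyond the trend of -0.042 for J and 0.034 for O. Without members that share sequence there were 2 for O and 1 for P/J. Leaving out single libraries gave 57 to 77 in the joint test, 3 to 13 for J, 1 to 3 for P, 1 to 45 for O, 63 to 76 for C, 46 to 74 for S, 0 to 8 for P/J, 1 to 38 for O/P and 2 to 73 for C/O. The lowest value for S came without S9-SCA-1+ replicate 3, which left a lone library of that population. The highest values for J and P/J came without OCP replicate 2, and those for P, O and O/P without OCP replicate 1. The medians then ranged from -0.36 to 0.064 for O and from -0.57 to -0.13 for C/O. The cause of these shifts was not tested, and the share of all tested genes passing in the fits without a library is not given. Over the named genes, 4619 of 4910 gene results kept direction and side of the limit.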
